A study of Homo sapiens with 9 samples.

Results

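The SREBP programme of fatty acid and cholesterol synthesis was followed in HepG2 cells, a line derived from a human liver tumour, as the mRNA of 36 genes listed by name: 6 regulators, 13 genes of the fatty acid branch and 17 of the sterol branch. Of these genes, 34 were measured among 17687 genes on the array, with 6 regulators, 12 genes of the fatty acid branch and 16 of the sterol branch, while FADS1 and FDFT1 were not analysed here. Every measured member was represented by 1 transcript cluster, that is 1 set of probes, of the Clariom S array. VDR+VitD cells received Ad-VDR, an adenovirus that encodes human VDR, and 10 nM VitD (calcitriol, the active hormone). VDR cells received Ad-VDR and vehicle (DMSO), and CONT cells received Ad-C, an adenovirus without an insert, and vehicle. Cells were kept with 1 plaque-forming unit of virus per cell during 48 h, and VitD or vehicle followed for 4 h in medium without virus. There were 9 arrays: each of 3 independent experiments contributed 1 array of VDR+VitD, 1 of VDR and 1 of CONT cells. VDR thus came from a viral vector in a line with little VDR of its own, and no cells with Ad-C and VitD were profiled, so VitD was compared only among cells with Ad-VDR.

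The levels given below are RMA values, which are log2 values, so that a difference of 1 is a doubling. They measure mRNA in whole cultures, in which fewer expressing cells and less RNA per cell cannot be told apart. VDR checked the labels, with 17.47, 17.58 and 17.45 in the VDR+VitD cells, 17.87, 17.87 and 17.80 in the VDR cells and 6.79, 6.04 and 6.21 in the CONT cells of experiments 1 to 3. CYP24A1, the VitD-degrading enzyme and a known target of VDR, had 16.44, 16.38 and 16.38 in VDR+VitD cells, 5.25, 6.08 and 6.04 in VDR cells and 6.64, 7.70 and 7.84 in CONT cells. All 8 markers of hepatocytes that were listed had means of 13.59 or more and none was called in any comparison. With the experiment as a block, APOA1 was called higher in VDR+VitD than in CONT cells (log2 difference 0.59, adjusted p = 0.0211, against 0.0514 without the block), and its VDR+VitD values (15.42, 14.98 and 15.31) also lay above the VDR values (14.87, 14.69 and 14.46). The 10 markers of other liver cells had means between 4.39 and 11.15, with CD68 and ACTA2 at 11.07 and 11.15, and none of them was called in any comparison either.

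SREBP proteins are transcription factors that are made as precursors in the membrane of the endoplasmic reticulum. SCAP escorts them to the Golgi, where they are cut and released to the nucleus, and INSIG1 and INSIG2 hold SCAP back when sterols are plentiful. In liver, SREBP-1, encoded by SREBF1, is known mainly for fatty acid synthesis, and SREBP-2, encoded by SREBF2, for cholesterol synthesis. MLXIPL encodes ChREBP, a glucose-responsive factor that acts on many of the same lipogenic genes. The arrays measured the mRNA of these factors and of their targets, but neither the cleavage of the proteins nor the lipids themselves.

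The promoters of 5 members are shown, because 4 of them (SREBF1, MLXIPL, ELOVL6 and NSDHL) were the genes that passed the test in at least 1 comparison, and SREBF2 encodes the other SREBP. Each is the 250 bases before the start of the gene in RefSeq, in the build GRCh38.p14, written 5′ to 3′ on the strand of the gene. Capitals mark a sterol regulatory element (SRE, searched as TCACNCCAC) or a CCAAT box (searched as CCAAT), both read on either strand.
SREBF1 (chr17:17836987-17837236, - strand): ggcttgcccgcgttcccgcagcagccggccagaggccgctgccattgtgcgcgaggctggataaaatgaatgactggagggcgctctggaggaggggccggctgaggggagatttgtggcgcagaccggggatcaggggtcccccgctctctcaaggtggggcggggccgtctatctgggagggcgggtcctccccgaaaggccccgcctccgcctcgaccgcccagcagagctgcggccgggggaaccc
MLXIPL (chr7:73624523-73624772, - strand): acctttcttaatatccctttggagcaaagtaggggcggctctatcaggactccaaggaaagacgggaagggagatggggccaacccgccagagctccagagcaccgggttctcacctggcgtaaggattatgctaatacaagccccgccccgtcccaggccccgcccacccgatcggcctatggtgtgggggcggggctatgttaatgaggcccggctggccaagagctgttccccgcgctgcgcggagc
SREBF2 (chr22:41832855-41833104, + strand): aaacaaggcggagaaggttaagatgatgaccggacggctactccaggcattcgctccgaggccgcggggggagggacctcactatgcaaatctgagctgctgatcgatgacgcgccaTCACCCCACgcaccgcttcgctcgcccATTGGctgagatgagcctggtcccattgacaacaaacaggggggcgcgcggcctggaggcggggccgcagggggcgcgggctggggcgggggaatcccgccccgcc
ELOVL6 (chr4:110198616-110198865, - strand): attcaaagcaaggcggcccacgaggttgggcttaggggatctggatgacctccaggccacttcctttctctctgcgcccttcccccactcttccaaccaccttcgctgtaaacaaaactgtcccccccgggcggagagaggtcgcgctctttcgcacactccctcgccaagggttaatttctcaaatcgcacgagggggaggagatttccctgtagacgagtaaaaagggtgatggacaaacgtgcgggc
NSDHL (chrX:152830813-152831062, + strand): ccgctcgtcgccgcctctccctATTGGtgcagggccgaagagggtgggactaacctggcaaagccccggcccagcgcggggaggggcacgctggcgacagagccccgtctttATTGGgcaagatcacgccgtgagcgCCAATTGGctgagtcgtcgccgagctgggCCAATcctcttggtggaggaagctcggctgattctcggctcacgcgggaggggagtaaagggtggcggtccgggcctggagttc
The SRE of SREBF2 began 133 bases before the start and its CCAAT box 106 bases before it. NSDHL held 5 matches to the CCAAT box, at 228, 138, 113, 110 and 84 bases before the start, and those at 113 and 110 overlap on opposite strands in the run CCAATTGG. SREBF1, MLXIPL and ELOVL6 had no match to either motif in these windows. Only 1 start was searched for each of the 5 genes, so promoters at other starts, as SREBF1 has, were not covered.

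RefSeq promoters were found for 31 of the 34 measured members, and 10 of these members had several starts, each counted when any of its promoters held the motif. The CCAAT box is bound by NF-Y, a factor known to act together with SREBP. It was found in 13 of 15 sterol genes, 7 of 10 fatty acid genes and 2 of 6 regulators, against 37.0% of 27305 genes in all. Several starts were listed for 5191 of the 27305 genes. With each promoter counted on its own, the CCAAT box was in 15 of 20 sterol, 9 of 16 fatty acid and 2 of 7 regulator promoters. The share was then 32.0% of all 35116 promoters. The SRE was found in SREBF2 alone, 1 of 31 members, against 1.09% of all genes. Only exact matches to the searched letters were counted, so sites with other letters or outside the window would not be found. The E-box CACGTG, part of the sequences that ChREBP binds, was found in 4 of 31 members (INSIG1, SCAP, ELOVL5 and SC5D), against 7.73% of all genes. Pairs of the half-site AGNTCA spaced by 3 bases, the arrangement that VDR with RXR is known to bind, were in no member promoter and in 0.0586% of all genes, and pairs spaced by 4 bases, as LXR with RXR binds, were in no member promoter and in 0.121% of all genes. None of these motifs contains another as searched. Letters in a window of this length are a description only and do not show where a factor was bound.

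SREBF1, MLXIPL and ELOVL6 had more mRNA with VitD in cells with Ad-VDR, and no member was lower by the same test. Calling a gene required an adjusted p below 0.05 (limma, Benjamini-Hochberg over all genes) together with more than a 1.5-fold difference. By this rule 3 of 34 members had more mRNA in VDR+VitD cells than in VDR cells and 31 were not called, against 2.62% of all genes called higher and 1.53% called lower. The calls were 2 of 6 regulators, 1 of 12 genes of the fatty acid branch and 0 of 16 genes of the sterol branch. In the sterol branch 1 of 16 genes had an unadjusted p under 0.05, as did 2677 of all 17687 genes. When limma's treat, which tests whether a change exceeds 1.5-fold, stood in for both thresholds, none of the 34 members was called. In 6 members every VDR+VitD value lay above every VDR value, and in 2 members every one lay below, where 8.66% and 9.7% of all genes did so.

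SREBF1 had RMA values of 11.64, 11.18 and 11.14 in VDR+VitD cells, 10.65, 10.60 and 10.22 in VDR cells and 10.61, 10.35 and 10.16 in CONT cells of experiments 1 to 3. All 3 values with VitD lay above the 6 without it, and the VDR and CONT values overlapped. VDR+VitD cells were higher than VDR cells by 0.83 on the log2 scale (standard error 0.17, 1.78-fold, adjusted p = 0.00995 from limma). The differences within experiments 1, 2 and 3 were 0.99, 0.58 and 0.92. The call was lost without VDR+VitD replicate 1 (adjusted p = 0.0591) or VDR replicate 3 (adjusted p = 0.051). The probes of SREBF1 form a single cluster, so its values do not separate the forms of SREBP-1 that start at different promoters.

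SREBF2 had 11.97, 11.86 and 12.17 in VDR+VitD cells, 11.94, 11.88 and 11.78 in VDR cells and 12.12, 12.00 and 11.83 in CONT cells. These groups overlapped, with the VDR+VitD value of experiment 3 as the highest of the 9. The log2 difference between VDR+VitD and VDR cells was 0.13 (95% interval -0.15 to 0.42, adjusted p = 0.748 from limma). A difference of 1.5-fold, 0.585 on the log2 scale, lay outside this interval. Whether SREBF1 and SREBF2 differed from each other in their response was not tested.

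MLXIPL had 11.30, 11.05 and 11.12 in VDR+VitD cells, 10.44, 10.71 and 10.49 in VDR cells and 9.99, 10.05 and 9.88 in CONT cells. The 3 groups did not overlap, with VDR cells between the others. VDR+VitD cells were higher than VDR cells by 0.61 (standard error 0.13, 1.53-fold, adjusted p = 0.0123 from limma), and by 0.86, 0.34 and 0.63 within experiments 1, 2 and 3. This call was lost without VDR+VitD replicate 1 (adjusted p = 0.0664) or VDR replicate 1 (adjusted p = 0.0578), and without VDR replicate 3 the fold-change was below 1.5 (log2 difference 0.58, adjusted p = 0.0446). VDR cells had a log2 difference of 0.57 to CONT cells, which is under 1.5-fold (adjusted p = 0.0854 from limma). This difference missed both thresholds and was not called. Its unadjusted p was 0.000637 and the sign was the same in 3 of 3 experiments.

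INSIG2 had 11.35, 11.50 and 11.75 in VDR+VitD cells, 11.95, 12.17 and 11.90 in VDR cells and 12.04, 12.05 and 12.00 in CONT cells. The VDR+VitD values were the 3 lowest of the 9. The log2 difference between VDR+VitD and VDR cells was -0.47 (standard error 0.14, adjusted p = 0.07 from limma), and it was below 0 in 3 of 3 experiments (-0.60, -0.67 and -0.15). INSIG1 had a difference of -0.44 with no overlap between the groups (adjusted p = 0.287), at low RMA values between 4.34 and 5.38. SCAP, their partner, had a difference of 0.16 (95% interval -0.22 to 0.54).

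**Figure D1:**
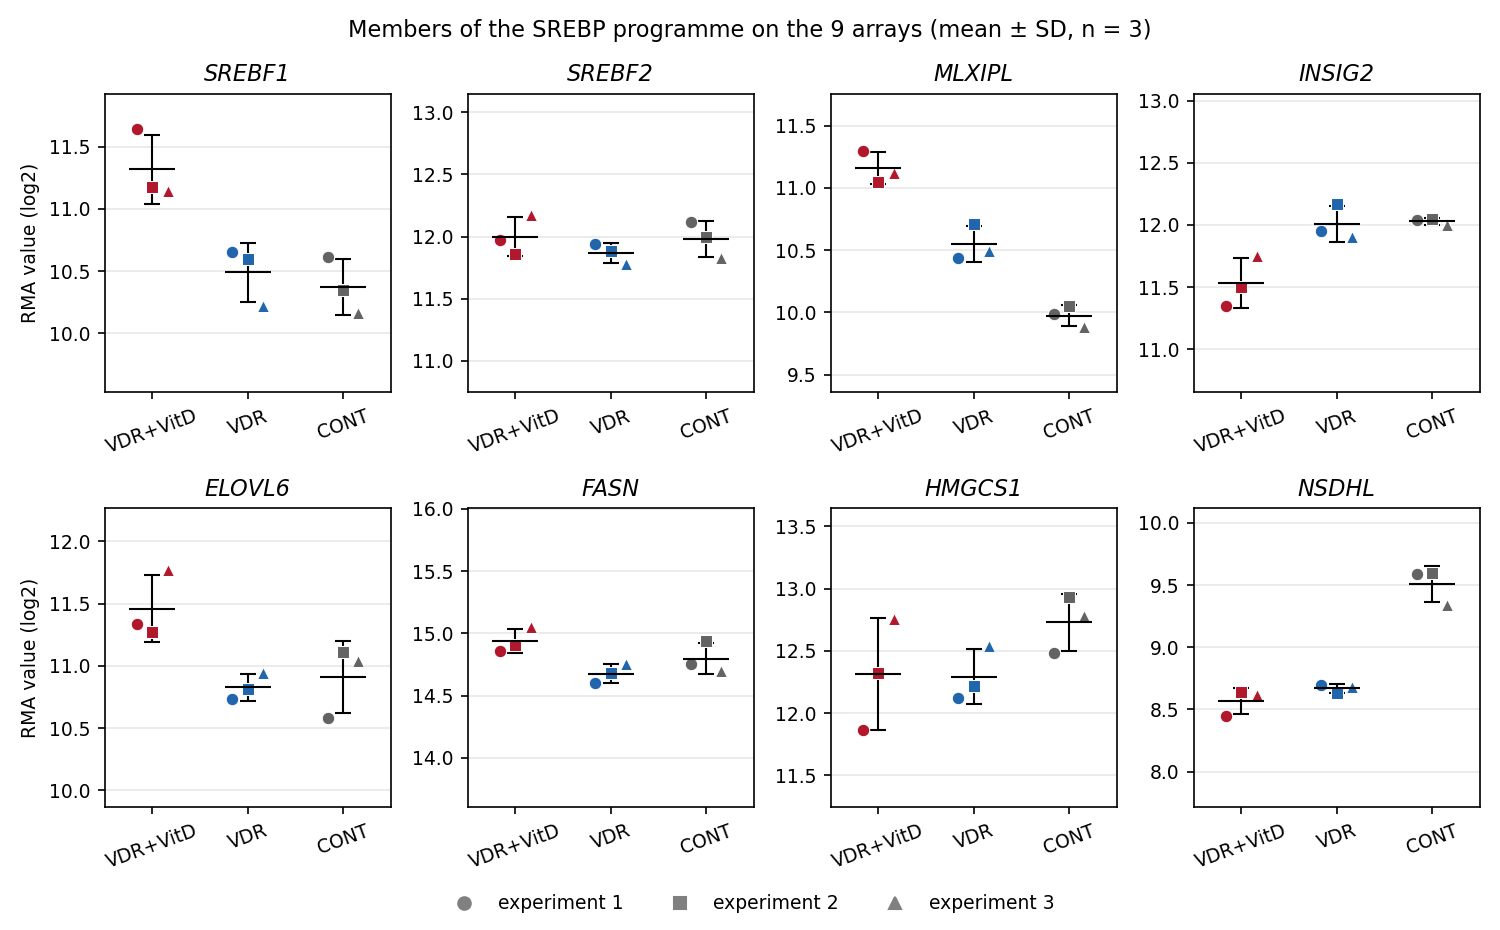
RMA values (log2, vertical axes of equal length) of 8 members in VDR+VitD, VDR and CONT cells, with a marker shape for each experiment, and bars for the mean and SD of 3 arrays. SREBF1, MLXIPL, ELOVL6 and FASN have all 3 VDR+VitD values above the VDR values, INSIG2 has them below, and NSDHL is low in both groups with Ad-VDR. FASN and INSIG2 were not called.

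Of the fatty acid branch, the elongase ELOVL6, which lengthens palmitate to stearate, was the gene that passed the test with VitD. It had 11.34, 11.27 and 11.77 in VDR+VitD cells, 10.73, 10.81 and 10.94 in VDR cells and 10.58, 11.11 and 11.04 in CONT cells. All VDR+VitD values lay above the other 6, while VDR and CONT values overlapped. VDR+VitD cells were higher than VDR cells by 0.63 (standard error 0.17, 1.55-fold, adjusted p = 0.0467 from limma), with 0.61, 0.46 and 0.83 within the experiments. The call was close to the threshold and was lost without any 1 of the 6 VDR+VitD and VDR arrays or without CONT replicate 3 (adjusted p from 0.054 to 0.196), and with estimated array weights (adjusted p = 0.0516).

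The other genes of the chain from citrate to long-chain fatty acids were not called. ACLY, which makes acetyl-CoA from citrate, had a log2 difference of 0.17 between VDR+VitD and VDR cells (adjusted p = 0.623). ACSS2, which makes it from acetate, had 0.30 (adjusted p = 0.504). ACACA, the acetyl-CoA carboxylase that supplies malonyl-CoA for synthesis, had 0.06 (95% interval -0.25 to 0.36).

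FASN, the fatty acid synthase, had 14.86, 14.91 and 15.05 in VDR+VitD cells, 14.60, 14.68 and 14.75 in VDR cells and 14.75, 14.94 and 14.70 in CONT cells. Its VDR+VitD and VDR values did not overlap and the difference was 0.26 with 0.26, 0.23 and 0.30 within the experiments, but it did not pass the test (adjusted p = 0.351). ELOVL5, an elongase of polyunsaturated fatty acids, also showed no overlap, with a difference of 0.23 (adjusted p = 0.454). FASN and ELOVL5 overlapped between VDR+VitD and CONT cells, with log2 differences of 0.14 and 0.05.

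SCD, the desaturase that forms oleate, had a log2 difference of -0.01 between VDR+VitD and VDR cells (95% interval -0.29 to 0.26). FADS2, a desaturase of polyunsaturated fatty acids, had -0.14, and its 3 VDR+VitD values (11.87, 12.38 and 12.68) were the most spread of the branch (SD 0.41). PNPLA3, a lipid droplet protein, had 0.20 (adjusted p = 0.681). ACACB, the mitochondrial carboxylase whose malonyl-CoA restrains fatty acid oxidation, had 5.05, 5.52 and 5.72 in VDR+VitD cells, 6.06, 5.54 and 6.03 in VDR cells and 5.81, 5.58 and 5.10 in CONT cells. These groups overlapped, and the difference of -0.45 between VDR+VitD and VDR cells, the lowest of the branch (adjusted p = 0.337), was made of -1.01, -0.02 and -0.31 in experiments 1, 2 and 3. ME1, a source of NADPH, had -0.26 (adjusted p = 0.414), and THRSP, a lipogenic regulator in liver, had -0.08 (adjusted p = 0.895). ACACB, ME1 and THRSP had low RMA values (means over the 9 arrays of 5.60, 3.31 and 4.02), at which a change can be understated.

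No gene of the sterol branch was called with VitD in either direction, where 2.62% of all genes were called higher and 1.53% lower. Of its 16 log2 differences between VDR+VitD and VDR cells, 7 were above 0 and 9 below, from -0.29 for PMVK to 0.35 for DHCR7. PMVK, phosphomevalonate kinase, had 5.75, 5.56 and 5.72 in VDR+VitD cells, 5.92, 6.37 and 5.60 in VDR cells and 5.92, 5.39 and 6.04 in CONT cells, and the groups overlapped. For 12 of the 16 genes the whole 95% interval lay within 1.5-fold either way. The same held for 9 of 12 genes of the fatty acid branch and for 12828 of all 17687 genes. The intervals of DHCR7, IDI1, HSD17B7 and PMVK reached beyond 1.5-fold.

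DHCR7, which converts 7-dehydrocholesterol, the shared precursor of cholesterol and VitD, to cholesterol, had the lowest p of the branch. Its values were 14.39, 14.55 and 14.68 in VDR+VitD cells, 14.39, 14.09 and 14.09 in VDR cells and 14.30, 14.25 and 13.98 in CONT cells. The VDR+VitD and VDR groups met at 14.39, and their difference of 0.35 had an unadjusted p of 0.0288 and an adjusted p of 0.248. Within the experiments it was 0, 0.46 and 0.59.

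Of the other mevalonate enzymes, HMGCS1, the synthase at the entry of the pathway, had a log2 difference of 0.02 between VDR+VitD and VDR cells, MVD, the decarboxylase, had 0.01, and MVK, mevalonate kinase, had -0.15. IDI1, the isopentenyl diphosphate isomerase, had 0.19, and FDPS, which builds farnesyl diphosphate, had -0.07. SQLE, the squalene epoxidase, had -0.08, and LSS, which closes the ring of lanosterol, had -0.13. Adjusted p-values in these genes ran from 0.746 for IDI1 to 0.983 for MVD.

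In the steps from lanosterol to cholesterol, CYP51A1, the lanosterol demethylase, had 12.53, 12.61 and 12.69 in VDR+VitD cells and 12.50, 12.50 and 12.51 in VDR cells. These values did not overlap, but the difference was 0.11 and was not called (adjusted p = 0.788). MSMO1, the C-4 methylsterol oxidase, had a difference of 0.20, SC5D, the sterol C-5 desaturase, 0.10 and NSDHL, a C-4 demethylation enzyme, -0.10. TM7SF2, a sterol C-14 reductase, had -0.19, EBP, the sterol isomerase, -0.17 and HSD17B7, the 3-ketosterol reductase, -0.26.

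**Figure D2:**
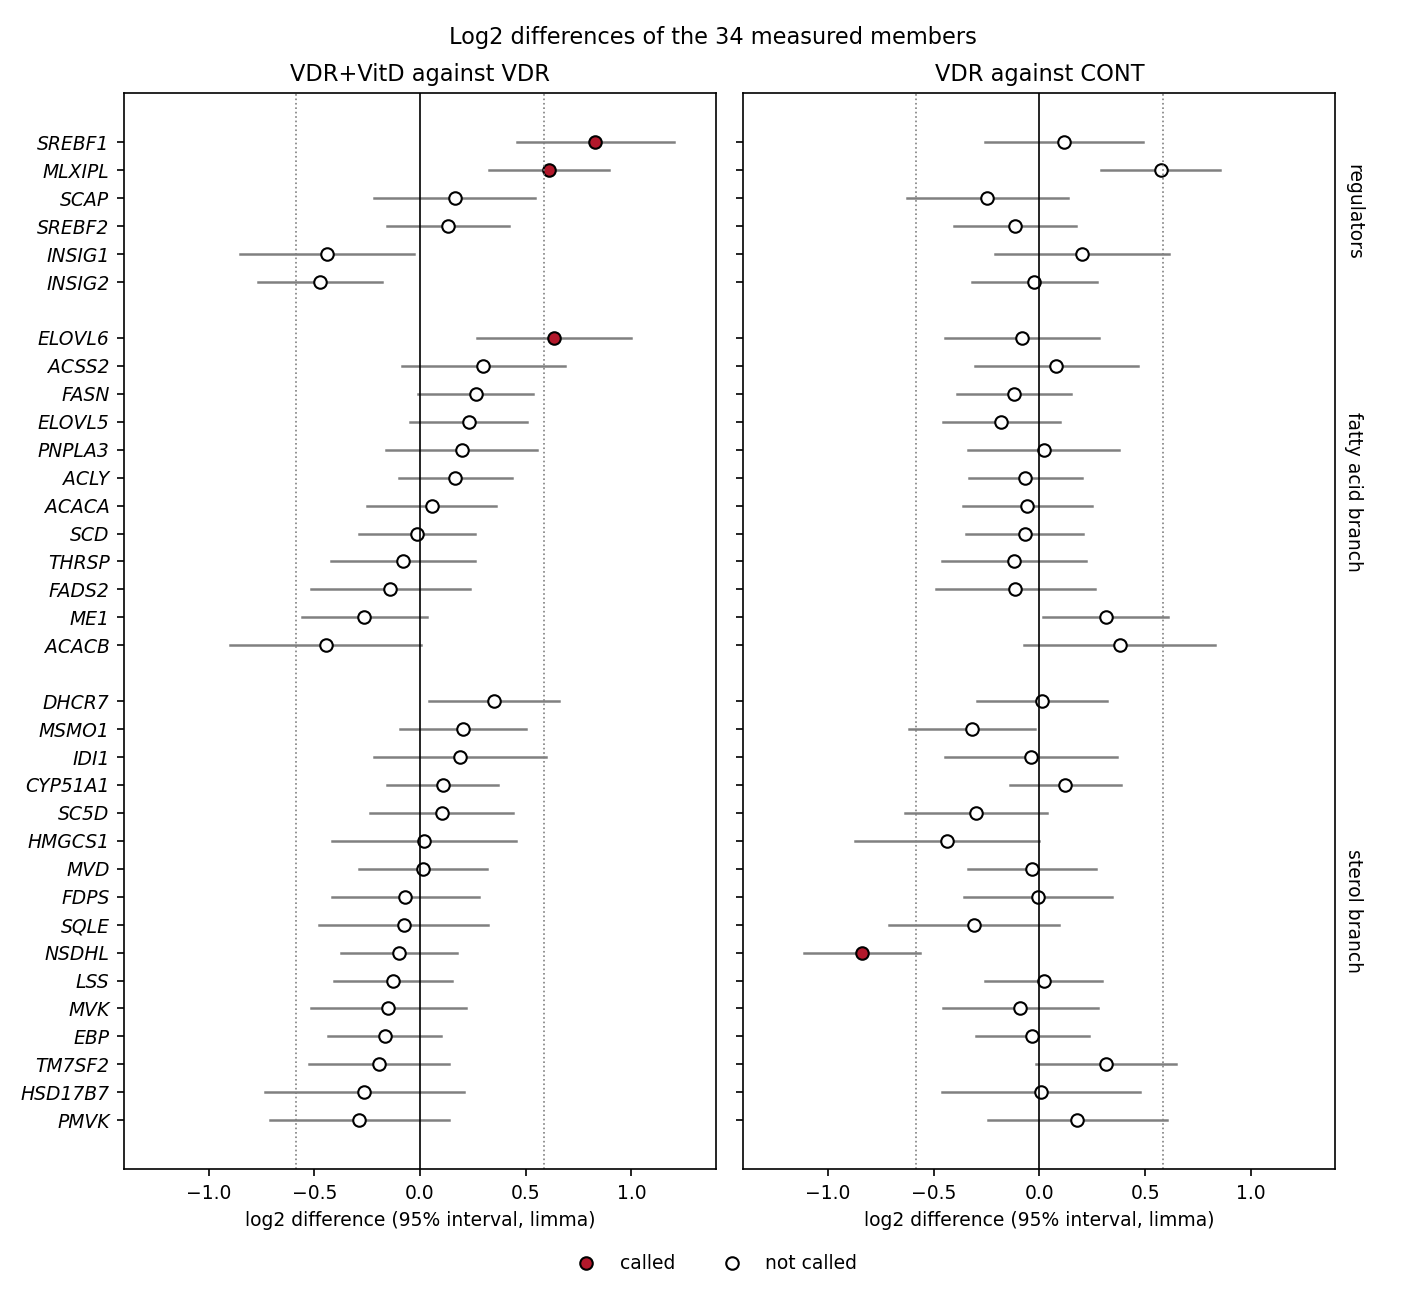
Log2 differences (points) with 95% intervals (lines) from limma for the 34 measured members, ordered within regulators, fatty acid branch and sterol branch, in VDR+VitD against VDR cells (left) and VDR against CONT cells (right), with filled points for called genes and dotted lines at 1.5-fold. The called genes are SREBF1, MLXIPL and ELOVL6 on the left and NSDHL on the right.

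Set against each other, the branches had medians of 0.11 (fatty acid) and -0.07 (sterol) for the log2 difference between VDR+VitD and VDR cells, with -0.02 over all genes and 0.15 for the regulators. The genes called were 1 fatty acid gene of 12 and 0 sterol genes of 16, against 735 of all 17687 genes. In 3 of 3 experiments, 5 fatty acid genes were higher and 1 was lower. For the sterol genes these counts were 2 higher and 1 lower, and for all 17687 genes 2691 higher and 3420 lower. The median of the fatty acid branch was 0.10, 0.15 and 0.11 in experiments 1, 2 and 3. That of the sterol branch was -0.16, -0.01 and 0.11, with 3, 8 and 12 of the 16 genes above 0. That of the regulators was -0.01, 0.07 and 0.39, and the regulator median of 0.15 became 0.06 without VDR replicate 3. Over all genes the 3 medians were -0.01, -0.03 and -0.02. The sign of the sterol median therefore differed between experiments, and it turned to 0.04 when VDR+VitD replicate 1 was left out.

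Sterol genes varied together among the 3 VDR+VitD arrays. Of 16 sterol genes, 14 had their lowest VDR+VitD value in experiment 1 and 12 their highest in experiment 3, with median deviations from the group mean of -0.19, 0.00 and 0.18 in experiments 1, 2 and 3. HMGCS1, for instance, had 11.86, 12.32 and 12.76 in VDR+VitD cells. HSD17B7 had 9.89, 9.90 and 10.78 in VDR+VitD cells and the largest SD of the members in this group (0.51). In the VDR cells 6 of 16 sterol genes were lowest in experiment 1 and 7 highest in experiment 3, and in CONT cells 7 and 4. Of all 17687 genes, 5655 were lowest in experiment 1 and 5951 highest in experiment 3 in the VDR+VitD group. In the fatty acid branch 7 of 12 genes were lowest in experiment 1 and 5 highest in experiment 3 in this group.

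**Figure D3:**
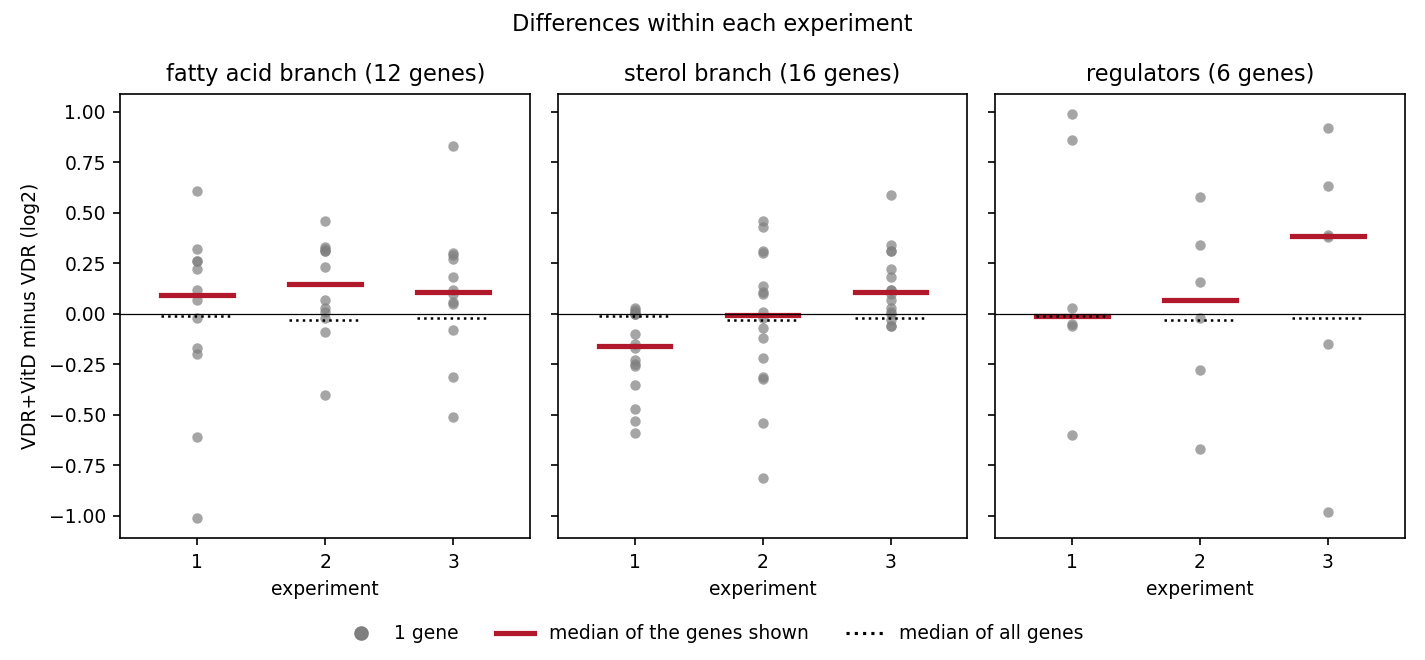
Difference between the VDR+VitD and the VDR array of each experiment (log2, vertical axis) for every gene of the fatty acid branch, the sterol branch and the regulators, with the median of these genes (thick line) and of all genes (dotted line). The sterol median is -0.16 in experiment 1 and 0.11 in experiment 3, while the fatty acid median lies between 0.10 and 0.15.

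In cells with Ad-VDR and no VitD, NSDHL was lower than in CONT cells, and no other member was called. Against 0.102% of all genes called higher and 0.305% called lower in VDR against CONT cells, 0 of 34 members were higher and 1 was lower. NSDHL, a dehydrogenase that removes C-4 methyl groups from sterol intermediates, had 8.70, 8.63 and 8.68 in VDR cells and 9.59, 9.60 and 9.34 in CONT cells. VDR cells were lower in 3 of 3 experiments (-0.89, -0.97 and -0.66), with a log2 difference of -0.84 (standard error 0.13, adjusted p = 0.00778 from limma), that is 0.559 of the CONT level. In VDR+VitD cells it had 8.45, 8.64 and 8.62, which overlapped the VDR values. The call for VDR against CONT was lost without CONT replicate 2 (log2 difference -0.80, adjusted p = 0.0611).

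Of the other sterol genes, MSMO1 had 16.08, 16.13 and 16.19 in VDR cells and 16.50, 16.53 and 16.33 in CONT cells. These groups did not overlap, but the difference of -0.32 did not pass the test (unadjusted p = 0.0367, adjusted p = 0.486). HMGCS1 had a difference of -0.44 (adjusted p = 0.526), SQLE -0.31 (adjusted p = 0.66) and SC5D -0.30 (adjusted p = 0.59), each below 0 in 3 of 3 experiments. TM7SF2 had 0.31 with no overlap (adjusted p = 0.554). Of the 16 sterol genes, 5 were lower in 3 of 3 experiments and 1 was higher. Of all 17687 genes, 2640 were lower and 2833 higher in 3 of 3. Over the 16 genes the median was -0.04, against 0.00 over all genes.

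In the fatty acid branch, where 0 of 12 genes were called with Ad-VDR alone and 1 had an unadjusted p under 0.05, the differences between VDR and CONT cells ran from -0.18 for ELOVL5 to 0.38 for ACACB, with a median of -0.07. The gene with an unadjusted p under 0.05 was ME1 (0.31, adjusted p = 0.499), at its low values. Of all 17687 genes, 72 were called and 1681 had an unadjusted p under 0.05 between VDR and CONT cells. Among the regulators, SREBF1 had 0.12 (adjusted p = 0.895), SREBF2 -0.12, SCAP -0.25, INSIG1 0.20 and INSIG2 -0.02. In all, 3 members lay wholly above CONT and 3 wholly below, where 6.61% and 6.53% of all genes did.

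Both steps together are read from VDR+VitD against CONT cells, a comparison that shares its arrays with the others and is no independent evidence. In it, 2 members (SREBF1 and MLXIPL) were higher and 1 (NSDHL) was lower, against 2.69% of all genes called higher and 2.12% called lower. MLXIPL was higher by 1.18 (standard error 0.13, 2.27-fold, adjusted p = 3.44e-05 from limma), and it was called in every one of the 19 alternative settings. SREBF1 was higher by 0.95 (1.93-fold, adjusted p = 0.00339) and NSDHL had -0.94 (0.521 of CONT, adjusted p = 0.000255), and treat called neither. INSIG2 had an adjusted p of 0.0488 with a difference of -0.50, which is under 1.5-fold, so it was not called. ELOVL6 had 0.55 (adjusted p = 0.0812).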

How the data were processed

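The authors deposited RMA values (log2 scale, 2 decimals) for 21448 Clariom S transcript clusters, and the submitters' processing notes name Transcriptome Analysis Console 4.0.2. RMA corrects the background, makes the arrays alike by quantile normalization and summarises probes, so a shift shared by most genes would not show. Values ran from 2.47 to 18.24 and array medians from 6.16 to 6.20. The number of arrays limits the precision. The build behind the probe annotation was not stated.

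Symbols came from the platform annotation (17709 clusters with 1 symbol, 3739 with none) and matched RefSeq by Entrez identifier. Averaging 20 genes with several clusters, none of them a member, left 17687 genes. Groups and experiments came from the labels. Comparisons were fitted in R 4.3.3 with limma 3.58.1 (lmFit and eBayes, all 9 arrays, group only, Benjamini-Hochberg over all genes), as the methods of the study name limma without a block. Those methods also name a filter on low variation or low intensity, without thresholds. A figure legend of the study, on clustering, gives 8000 mRNAs kept by interquartile range. The main fit here used no filter, and 8000 genes by interquartile range were used only as an alternative.

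The members and the gene lists were chosen with earlier results of these data known. All 9 values were to be given for members with an adjusted p under 0.05 in any comparison, for SREBF2, and for the lowest and highest VitD difference of each group. Other lists were to be named only where called or with their lowest p. Values by array of FASN, FADS2, HMGCS1, HSD17B7, CYP51A1 and MSMO1 were added after they were seen.

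The labels number 3 independent experiments, which pair the samples. Deviations from the group means correlated with r between 0.042 and 0.145 in 9 pairs of arrays from 1 experiment, against -0.0959 to 0.0102 in 18 pairs across experiments.

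In 5 simulations of VDR+VitD against VDR (17687 genes, 200 of them changed), 43.3% of 1.5-fold, 98.8% of 2-fold and 100% of 3-fold changes were recovered, with 8.8 false calls on average. A planted 1.5-fold change had to be estimated above 1.5-fold to be called, so the rule itself lost many of these. Noise was drawn independently for each array from limma's spread per gene, without an effect of the experiment.

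Promoters came from RefSeq (GRCh38.p14). FASN, PNPLA3 and SQLE had no entry in the table used. Alternatives were the experiment as a block, only the 6 arrays compared, 8000 genes by interquartile range, the dimmest 25% left out, no fold threshold, treat, an intensity trend, median centring, array weights, the brightest cluster of a gene, and each array left out.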

Additional observations from a re-analysis of the deposited data

How the results depend on the processing

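Of 739 values recomputed under the alternatives, 665 were labelled the same, 58 weaker, 6 stronger, 10 moved and 0 reversed. For a single gene, same meant that the sign and the call were kept, and only single genes could be labelled reversed. A count was the same within 1.5-fold of its main value. A median was the same when it shifted by less than the SD of the medians of the 3 experiments. Signs of medians were not checked, and the sterol median for VDR+VitD against VDR ran from -0.193 to 0.044 with 1 array left out. For VDR+VitD against VDR, limma's test against 1.5-fold called 188 genes in place of 735 (158 higher, 30 lower), 0 members in place of 3, 0 regulators in place of 2 and 0 fatty acid genes in place of 1, and array weights also gave 0 fatty acid genes. With 1 array left out, 0 to 3 members, 0 to 2 regulators and 0 to 1 fatty acid genes were called. The fatty acid median of 0.112 became 0.3 over the 8000 most variable genes and 0.182 without the dimmest genes (0.062 to 0.17 with 1 array left out), and the regulator median of 0.148 became 0.387 over the 8000 (0.055 to 0.205 with 1 array left out). These 2 filters leave out members, so the medians are over fewer genes. For VDR against CONT, 72 genes became 140 with the experiment as a block (44 higher, 96 lower), 141 over the 8000, 142 with an intensity trend, 11 with the test against 1.5-fold and 27 to 69 with 1 array left out. In this comparison members called became 0 in place of 1 with the test against 1.5-fold (0 to 1 with 1 array left out), the fatty acid median 0.08 over the 8000 in place of -0.068, and the sterol median ran from -0.103 to 0 with 1 array left out. For VDR+VitD against CONT, the test against 1.5-fold gave 207 genes in place of 851 and 1 member (MLXIPL) in place of 3, and over the 8000 the regulator median was 0.432 in place of -0.033 and the fatty acid median 0.38 in place of 0.05. The block for the experiment changed no call of a member, and INSIG2 had an adjusted p of 0.0525 with it in VDR+VitD against CONT. The cause was not tested for the other changes.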

Other observations

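Genes around the programme, from lists that the members do not include, were read from the same fit for VDR+VitD against VDR cells. In this fit 735 of all 17687 genes were called, the share to set beside the count called in each list. IDH1, the cytosolic isocitrate dehydrogenase that supplies NADPH, had 14.99, 15.02 and 15.14 in VDR+VitD cells, 14.15, 14.02 and 14.29 in VDR cells and 14.01, 13.91 and 13.86 in CONT cells. It was higher with VitD by 0.90 (1.86-fold, adjusted p = 0.000397 from limma), and it was the only one of 6 measured genes for NADPH supply to be called. Of 19 alternatives, treat alone did not call it (adjusted p = 0.785). Of 11 other enzymes of fatty acid elongation and desaturation, HACD4, a 3-hydroxyacyl-CoA dehydratase, was called, with a difference of 0.63 (adjusted p = 0.032). Its RMA values were low (a mean of 4.13 over the 9 arrays), it was called in 11 of the 18 alternative settings that kept it, and it was not in the fit without the dimmest genes.

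Among 5 measured genes of LXR and its targets, ABCA1, the cholesterol exporter, was lower with VitD by -0.61 (0.655 of the VDR level, adjusted p = 0.0197), below 0 in 3 of 3 experiments, and the call was lost without VDR+VitD replicate 2 or 3 or VDR replicate 1 (adjusted p = 0.0923, 0.0602 and 0.097) and with treat (adjusted p = 1). Of 8 other genes known to respond to SREBP-2, 0 were called by limma, against 735 of all 17687 genes. An unadjusted p below 0.05 was found in 0 of the 8, against 2677 of all genes. Among the 8, NPC1, the lysosomal cholesterol transporter, came nearest (0.27, adjusted p = 0.337). None of 6 other genes that control the pathway was called (unadjusted p below 0.05 in 2 of them). MLX, the partner of ChREBP, had the lowest p among these (-0.45, adjusted p = 0.152).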
